A study of Homo sapiens with 12 samples.

Results

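The genes described here encode histone-modifying enzymes, 50 in number, chosen by name: 11 histone acetyltransferases, 23 lysine methyltransferases, 13 lysine demethylases and 3 arginine methyltransferases. Each of the 50 symbols matched 1 row of the deposited count table, which holds 78892 genes, and 49 of them were among the 17869 genes with enough counts to be tested. KDM5B, an H3K4 demethylase, was the member left out, because it had 0 counts in every library.

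The RNA came from OCI-Ly7, an established human diffuse large B-cell lymphoma line, in 12 poly(A) libraries that fall into 4 groups of 3. Cells of the HDAC3i+AZA group received 5-azacitidine (AZA, an inhibitor of DNA methyltransferases) at 100 nM each day from day 0 to day 4 and an HDAC3 inhibitor at 15 μM on days 2 and 4. The HDAC3i group received the inhibitor alone on those 2 days, the AZA group received AZA alone on the same days as the combination, and the vehicle group received neither drug. All cells were collected on day 5, and the inhibitor's chemical name is not given in the sources used here. The labels do not say whether a group's 3 libraries are separate cultures, so the p-values weigh a difference against a spread that may be technical.

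Acetyltransferases add acetyl groups to lysines of histone tails, and deacetylases such as HDAC3 remove them. The other enzymes listed here add or remove methyl groups on histones. Methyltransferases mark lysines in ways tied to position: H3K4 methylation is found at promoters and enhancers, H3K36 methylation along transcribed genes, and H3K9 and H3K27 methylation in silent chromatin, while demethylases reverse these marks. In germinal-centre lymphomas CREBBP, EP300 and KMT2D are recurrently inactivated by mutation and EZH2 recurrently carries activating mutations, which is why the transcripts of this class are of interest in a lymphoma line treated with 2 epigenetic drugs.

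Library totals ran from 35947872 to 36337086 counts. Levels are given as CPM, counts per 1000000 counts of the library, scaled between libraries with TMM factors, and a change is a log2 fold change with its standard error from the edgeR quasi-likelihood fit over all 12 libraries. A gene was called at a Benjamini-Hochberg adjusted p under 0.05 over all genes tested. CPM is a share of the library, so less RNA of a gene per cell and fewer cells carrying it cannot be told apart, nor can a change of total RNA per cell be seen. The B-cell markers MS4A1, CD79A, CD79B and PAX5 were high in all 12 libraries (136 to 1508 CPM), whereas CD3D did not exceed 0.471 CPM. Of the other cell types' markers, CD3E averaged 9.001 ± 0.93 CPM with both drugs, 6.50 ± 0.31 with HDAC3i, 1.55 ± 0.28 with AZA and 1.02 ± 0.17 in vehicle, and COL1A1 averaged 6.35 ± 1.15, 2.96 ± 0.28, 0.175 ± 0.057 and 0.0554 ± 0.0959 CPM in the same groups (SD, n = 3 each). AZA replicate 1 and HDAC3i+AZA replicate 3 stood apart by the share of mitochondrially encoded counts, 13.8% and 15.3%, where the other libraries had 9.59% to 13.0%. The share also moved with the inhibitor, averaging 13.56% ± 1.51 with both drugs, 12.52% ± 0.45 with HDAC3i, 11.35% ± 2.12 with AZA and 10.03% ± 0.48 in vehicle (SD, n = 3 each), and every library that received the inhibitor lay above every vehicle library.

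Per length, the members covered a wide range in vehicle cells. The 5 highest per kilobase of exon were PRMT1 at 61.2 ± 3.1, KAT2A at 49.4 ± 2.1, CARM1 at 44.3 ± 2.7, PRMT5 at 38.1 ± 1.0 and KMT5A at 34.8 ± 0.8 CPM per kb (SD, n = 3). The lowest with counts were KDM6A at 0.795 ± 0.024 and KMT2C at 0.935 ± 0.036 CPM per kb, both large genes of the enhancer-linked KMT2C/KMT2D complexes, followed by KAT6B at 1.17 ± 0.03. EZH2, the main H3K27 methyltransferase of dividing cells, stood at 11.1 ± 0.2 CPM per kb against 6.35 ± 0.35 for its paralogue EZH1. KAT2A and CARM1, neighbours in this order, differed by about the sum of their SDs, and the vehicle levels of EZH2 and NCOA3 did not differ beyond their spread. Exon lengths are unions over all annotated transcripts, which lowers the per-length level of genes with many isoforms.

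KDM5B had 0 counts in all 12 libraries, below an upper limit of 3 counts, or 0.0826 to 0.0835 CPM, in each. None of its exonic bases is shared with another gene, and the genes around it on chromosome 1 were counted: UBE2T had 2467 to 2923 counts, RABIF 566 to 926 and ADIPOR1 3095 to 3932 over the 12 libraries. PCR reads without molecular identifiers are not independent molecules, so this limit covers counting error only. Why no read was assigned to KDM5B was not tested.

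For 45 of the 50 members RefSeq gives a promoter on GRCh38.p14, here the 250 bases before and 50 after the most upstream transcription start. These promoters are richer in CpG than promoters at large, with a median of 30 CpG dinucleotides and 66.7% GC over the members, against 13 CpG and 58.3% GC over 27305 genes. The GC box (GGGCGG, the core of the motif bound by SP1) occurred on either strand in 33 of the 45 member promoters (73.3%) and in 44.5% of all promoters. The NF-Y motif, spelled CCAAT, was found in 28.9% of the member promoters and in 35.7% of all. The promoters of 4 genes are printed because the results turn on their genes: CREBBP and KMT2B had the largest falls with the inhibitor, SMYD3 was the 1 member that rose, and EZH2 was among those whose change did not pass the test. All 4 are written 5′ to 3′ on the strand of the gene, with the GC box and the NF-Y motif in capitals on either strand, neighbouring or overlapping matches running together; in SMYD3 the capitals also mark GCGCATG, a motif of NRF1 that 3 of the 45 member promoters (6.67%) and 4.68% of all promoters hold.
CREBBP, chr16:3880664-3880963, minus strand: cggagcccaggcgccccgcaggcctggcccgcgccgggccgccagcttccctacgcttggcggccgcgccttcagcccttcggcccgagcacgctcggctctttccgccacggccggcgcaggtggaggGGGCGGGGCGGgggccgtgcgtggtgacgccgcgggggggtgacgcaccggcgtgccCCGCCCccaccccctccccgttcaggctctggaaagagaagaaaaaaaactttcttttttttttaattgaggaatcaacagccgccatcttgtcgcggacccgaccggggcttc
KMT2B, chr19:35717753-35718052, plus strand: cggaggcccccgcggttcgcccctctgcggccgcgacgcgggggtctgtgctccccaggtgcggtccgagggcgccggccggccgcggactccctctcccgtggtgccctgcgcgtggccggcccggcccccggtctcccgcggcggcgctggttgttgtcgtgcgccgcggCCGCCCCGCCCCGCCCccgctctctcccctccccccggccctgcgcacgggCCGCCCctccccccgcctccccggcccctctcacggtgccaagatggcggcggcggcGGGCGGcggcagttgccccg
SMYD3, chr1:246507230-246507529, minus strand: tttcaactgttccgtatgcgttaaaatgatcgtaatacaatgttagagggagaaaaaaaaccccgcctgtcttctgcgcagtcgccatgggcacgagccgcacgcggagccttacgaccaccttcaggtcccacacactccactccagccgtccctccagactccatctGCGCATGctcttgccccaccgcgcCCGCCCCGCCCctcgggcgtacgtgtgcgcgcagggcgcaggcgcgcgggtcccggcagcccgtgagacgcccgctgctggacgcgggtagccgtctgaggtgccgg
EZH2, chr7:148884242-148884541, minus strand: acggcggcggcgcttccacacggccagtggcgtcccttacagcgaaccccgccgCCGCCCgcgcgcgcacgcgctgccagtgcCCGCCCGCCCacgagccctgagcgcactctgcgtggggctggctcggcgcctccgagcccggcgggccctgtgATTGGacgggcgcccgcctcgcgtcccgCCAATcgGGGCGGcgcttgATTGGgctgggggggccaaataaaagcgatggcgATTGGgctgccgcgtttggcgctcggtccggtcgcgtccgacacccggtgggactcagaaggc
In the files' annotation CREBBP spans 3725054 to 3880713 on chromosome 16, KMT2B 35717973 to 35738880 on chromosome 19, SMYD3 245749342 to 246507312 on chromosome 1 and EZH2 148807257 to 148884321 on chromosome 7. The 4 windows hold 36, 48, 34 and 46 CpG dinucleotides, and every one of them contains the GC box, so a gene that fell, a gene that rose and a gene that was not called all carry it. A match describes these letters only and is not a measured binding site.

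The first comparison asks how the HDAC3 inhibitor alone changed the transcripts of these enzymes. With the inhibitor 40 of the 49 tested members fell and 1, SMYD3, rose (81.6% called lower). Over all genes tested 24.9% were called lower and 26.4% higher, and among the 10016 genes averaging at least 5 CPM, a level every tested member exceeded, 40.3% were called lower. The median change of the members was -0.30 on the log2 scale, against 0.00 for all genes and -0.10 for genes of at least 5 CPM. HDAC3i and vehicle values did not overlap for 46 of the 49 members, 60.1% of all genes and 71.7% of genes of at least 5 CPM. A lack of overlap therefore hardly sets a member apart. The falls were small: 2 members, CREBBP and KMT2B, were lower by 1.5-fold or more, and the standard errors ran from 0.05 to 0.11. The mitochondrial share is higher in these HDAC3i libraries than in vehicle, and with mitochondrially encoded genes left out of the fit 37 members were lower and 1 higher. Without the 2 libraries of highest mitochondrial share NCOA3 (0.12) was called higher and ASH1L (-0.23) lower, and KAT6B (-0.17) was not called. Those 2 libraries belong to neither group of this comparison and act on it only through the fit shared by all groups. Leaving them out therefore does not test the mitochondrial share of the HDAC3i libraries.

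**Figure D1:**
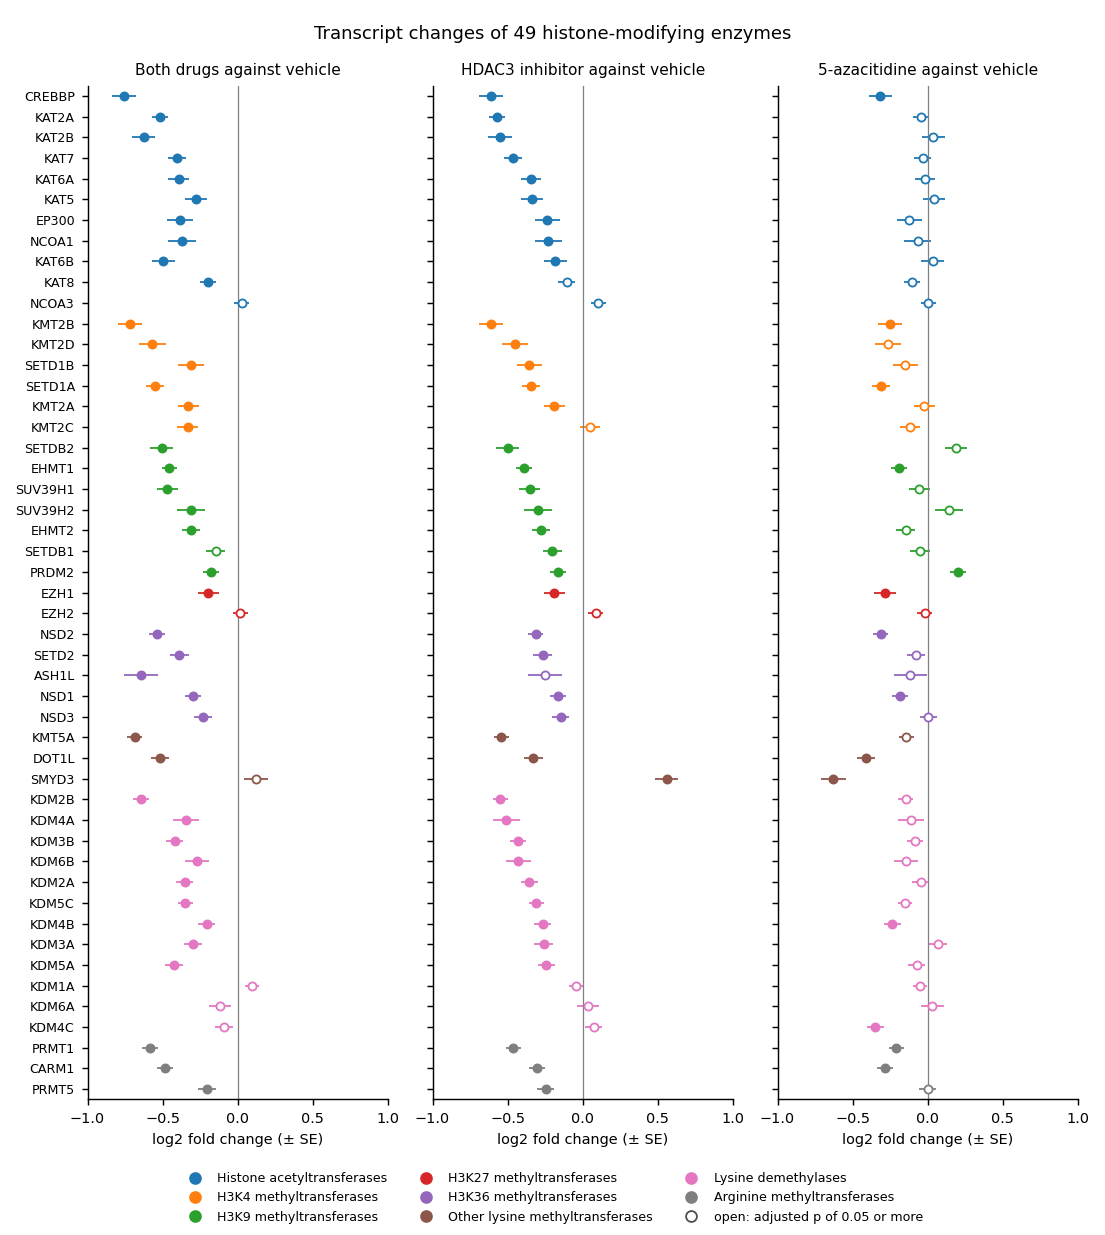
Log2 fold change with its standard error (x axis) of the 49 tested members (rows, grouped and coloured by enzyme class, sorted within a class by the inhibitor change) with both drugs, HDAC3 inhibitor alone and AZA alone, each against vehicle. Filled points passed an adjusted p of 0.05; most points of the first 2 panels lie left of 0, SMYD3 lies right of 0 with the inhibitor and left with AZA.

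Among the acetyltransferases 9 of 11 fell. CREBBP, the CBP coactivator that acetylates enhancers, had 63.0, 74.6 and 75.3 CPM in HDAC3i libraries and 107, 112 and 106 CPM in vehicle libraries. The groups did not overlap, and the change of -0.61 ± 0.08 (adjusted p = 3.17e-07, edgeR) corresponds to a level 34.5% lower. EP300, its paralogue, had 91.3, 103 and 98.4 CPM in HDAC3i libraries and 111, 121 and 113 CPM in vehicle libraries, again without overlap. Its change was smaller, -0.23 ± 0.09 (adjusted p = 0.024, edgeR). The call of EP300 was lost in 4 of 24 alternative analyses, among them leaving out HDAC3i replicate 1 (adjusted p = 0.11) or vehicle replicate 2 (adjusted p = 0.098). KAT2A, the GCN5 subunit of SAGA and ATAC, had 130, 125 and 122 CPM in HDAC3i libraries and 189, 178 and 193 CPM in vehicle libraries, a change of -0.57 ± 0.05 (adjusted p = 1.49e-09, edgeR). The highest inhibitor library of KAT2A lay well below its lowest vehicle library. KAT2B, the PCAF counterpart of KAT2A, fell by 0.55 on the log2 scale.

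The MYST acetyltransferases KAT7 (-0.46), KAT6A (-0.34), KAT5 (-0.34) and KAT6B (-0.18) were lower as well, whereas KAT8, the H4K16 acetyltransferase, changed by -0.11 ± 0.05 and was not called (adjusted p = 0.10). The call of KAT6B was weak: it was lost in 13 of 24 alternative analyses, among them leaving out any 1 of the vehicle libraries. Of the nuclear receptor coactivators NCOA1 was called lower at -0.23, a call lost in 11 of 24 alternatives, and NCOA3 had 101, 99.4 and 101 CPM with HDAC3i against 93.0, 93.8 and 93.4 CPM with vehicle. Those NCOA3 values did not overlap, yet the change of 0.10 ± 0.05 did not pass the test (adjusted p = 0.098).

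All 7 H3K9 methyltransferases and 5 of 6 H3K4 methyltransferases fell. KMT2B, which methylates H3K4 at CpG-rich promoters, had 43.8, 50.1 and 44.1 CPM in HDAC3i libraries and 64.8, 74.3 and 71.0 CPM in vehicle libraries, a change of -0.61 ± 0.08 (adjusted p = 4.15e-07, edgeR). KMT2D, the enhancer H3K4 methyltransferase, had 62.0, 62.9 and 58.1 CPM with HDAC3i against 75.2, 95.1 and 79.6 CPM with vehicle, a change of -0.45 ± 0.09 (adjusted p = 0.000104, edgeR). Both genes were lower in every inhibitor library than in any vehicle library. KMT2C, the paralogue of KMT2D, was the exception: it had 48.2, 51.5 and 55.0 CPM with HDAC3i and 48.9, 52.0 and 48.6 CPM with vehicle, with overlapping groups and a change of 0.05 ± 0.07.

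In the H3K9 class SETDB2 had the largest fall, -0.50, followed by EHMT1 (the GLP methyltransferase) at -0.39, SUV39H1 at -0.35, SUV39H2 at -0.30, EHMT2 (the G9a methyltransferase) at -0.28, SETDB1 at -0.20 and PRDM2 at -0.16. The 2 smallest of these were not called under a filter of 5 CPM in at least 3 libraries (adjusted p = 0.098 for SETDB1 and 0.13 for PRDM2). Leaving out 1 library also ended the calls of SETDB1 (-0.15 without HDAC3i replicate 3), PRDM2 (-0.14 without vehicle replicate 1, -0.15 without HDAC3i replicate 1), SUV39H2 (-0.24 without vehicle replicate 1, -0.25 without HDAC3i replicate 2), and, in the H3K4 class, KMT2A (-0.12 without vehicle replicate 2, -0.16 without HDAC3i replicate 1).

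The H3K27 methyltransferases EZH1 and EZH2 differed in their calls, a difference that was not tested. EZH2 had 125, 131 and 124 CPM in HDAC3i libraries and 121, 116 and 121 CPM in vehicle libraries. Its values did not overlap, but the difference of 0.09 ± 0.05 was not called (adjusted p = 0.16, edgeR). With other settings it was: 0.16 under the filter of 5 CPM in at least 3 libraries (adjusted p = 0.0045) and 0.13 with an offset for GC content and exonic length (adjusted p = 0.012). EZH1, its paralogue in the alternative PRC2 complex, had 38.9, 40.8 and 37.1 CPM with HDAC3i and 41.7, 46.4 and 45.1 CPM with vehicle, a change of -0.19 ± 0.07 (adjusted p = 0.028, edgeR). The call of EZH1 was lost in 6 of 24 alternatives, among them leaving out HDAC3i replicate 3 (adjusted p = 0.12) or vehicle replicate 2 (adjusted p = 0.11).

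Of the H3K36 methyltransferases NSD2 fell by 0.31, SETD2, the trimethylase that travels with elongating polymerase, by 0.27, NSD1 by 0.16 and NSD3 by 0.15 on the log2 scale, whereas ASH1L at -0.25 ± 0.11 was not called (adjusted p = 0.060). The calls of NSD3 and NSD1 were lost in 11 and 3 of 24 alternatives, and ASH1L was called in 10 of them. KMT5A, the H4K20 monomethylase, had 99.4, 102 and 101 CPM in HDAC3i libraries and 151, 145 and 145 CPM in vehicle libraries, the most even fall of the class at -0.54 ± 0.05 (adjusted p = 1e-09, edgeR). DOT1L, the H3K79 methyltransferase, fell by 0.33 on the log2 scale.

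SMYD3, a methyltransferase with a SET and a MYND domain, went against the rest. It had 19.1, 19.8 and 20.1 CPM in HDAC3i libraries and 13.9, 12.9 and 13.2 CPM in vehicle libraries. Its rise of 0.56 ± 0.08 (adjusted p = 1.17e-06, edgeR), 1.47-fold, was close in size to the largest falls of other members.

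Of the 12 tested demethylases 9 fell. KDM2B, which binds unmethylated CpG islands and removes H3K36 methylation, was lowest at -0.55 ± 0.05 (adjusted p = 9.71e-10, edgeR), and KDM4A, KDM3B and KDM6B followed at -0.51, -0.43 and -0.43. KDM6B, an H3K27 demethylase, had 25.6, 26.96 and 25.7 CPM in HDAC3i libraries and 34.0, 34.9 and 36.4 CPM in vehicle libraries, a change of -0.43 ± 0.08 (adjusted p = 8.19e-05, edgeR), while KDM6A, the other H3K27 demethylase listed, changed by 0.04 ± 0.07. KDM1A, the LSD1 demethylase of the CoREST complex, had 142.9, 147.7 and 144.3 CPM with HDAC3i and 150.1, 149.3 and 148.1 CPM with vehicle. Although no HDAC3i value of KDM1A reached a vehicle value, the change of -0.04 ± 0.05 was not called (adjusted p = 0.50). KDM4C, at 0.07 ± 0.06, was the third demethylase not called.

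All 3 arginine methyltransferases fell. PRMT1, the main source of asymmetric dimethylarginine, was lower by 0.46, CARM1 by 0.30 and PRMT5, which makes symmetric dimethylarginine, by 0.25 on the log2 scale. Counting dropped reads that overlap another gene, so the values of PRMT5 (28.2% of its exonic bases lie under PRMT5-AS1), KAT5 (38.6% under RNASEH2C) and KDM4A (50.2% under other annotated genes) rest on the remaining bases.

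**Figure D2:**
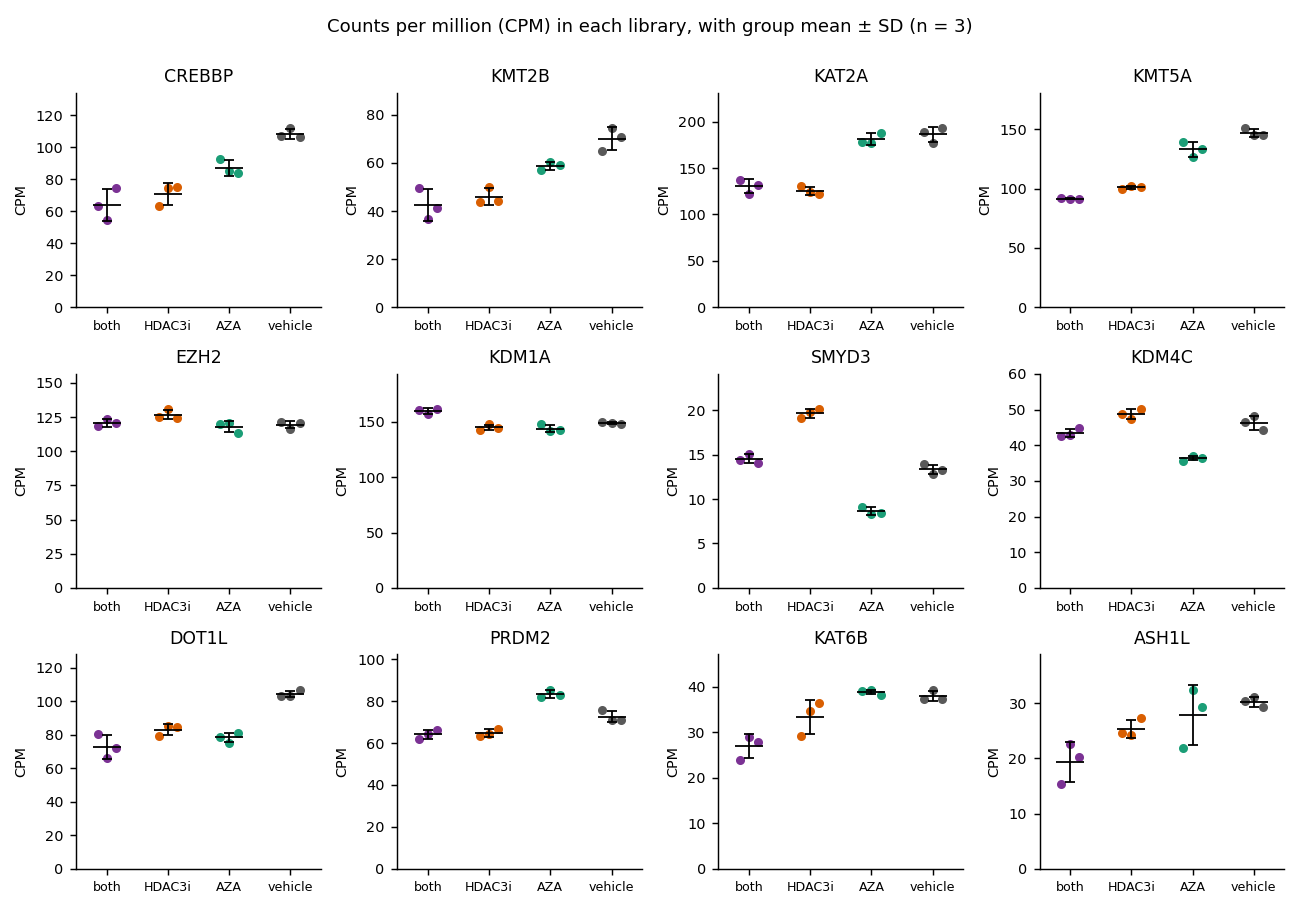
CPM (y axis, from 0) of 12 members in each library, with HDAC3i+AZA ("both"), HDAC3i, AZA and vehicle from left to right; points are libraries and bars the mean ± SD of 3. CREBBP, KMT2B, KAT2A and KMT5A are lower in both groups that received the inhibitor, EZH2 and KDM1A are nearly level, and SMYD3 is highest with HDAC3i and lowest with AZA.

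From the members 15 pairs of paralogues were chosen for description, which are not all the related genes among them. In 10 pairs both genes fell with the inhibitor, and in 5 pairs only 1 gene was called lower: NCOA1 but not NCOA3, KMT2D but not KMT2C, EZH1 but not EZH2, KDM6B but not KDM6A, and KDM5A, whose partner KDM5B had no counts. The pair of KDM5A could not have both genes lower, as KDM5B was not tested. Since 81.6% of all tested members were called lower, many pairs drawn in any way would have both genes lower. The counts therefore show nothing particular to paralogues. Differences between the genes of a pair were not tested.

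The second comparison asks what AZA did on its own. With AZA 13 of the 49 members fell (26.5%) and 1, PRDM2, rose, where 4.75% of all genes were called lower and 4.31% higher, and 8.1% of the genes of at least 5 CPM were called lower. The member median was -0.11, against 0.00 for all genes. AZA and vehicle values did not overlap for 26 of the 49 members, 25.7% of all genes and 33.5% of genes of at least 5 CPM. SMYD3 had the largest fall: 9.15, 8.30 and 8.44 CPM in AZA libraries and 13.9, 12.9 and 13.2 CPM in vehicle libraries, without overlap, a change of -0.63 ± 0.08 (adjusted p = 1.11e-05, edgeR). DOT1L had 78.6, 75.4 and 81.2 CPM with AZA and 103, 103 and 107 CPM with vehicle, a change of -0.41 ± 0.06 (adjusted p = 4.36e-05, edgeR). KDM4C, an H3K9 demethylase that the inhibitor left uncalled, had 35.7, 36.9 and 36.5 CPM with AZA and 46.5, 48.1 and 44.3 CPM with vehicle, a change of -0.35 ± 0.06 (adjusted p = 0.000236, edgeR). SMYD3 and KDM4C span the longest stretches of the genome among the members, 757971 and 454786 bases, although over all 49 members span and AZA change were hardly related (Spearman rho = -0.08, a description over genes that share libraries).

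The other falls with AZA were CREBBP at -0.31, NSD2 at -0.31, SETD1A at -0.31, CARM1 at -0.29, EZH1 at -0.28, KMT2B at -0.25, KDM4B at -0.24, PRMT1 at -0.21, EHMT1 at -0.19 and NSD1 at -0.19. CREBBP had 93.0, 85.0 and 83.8 CPM in AZA libraries, each below the 3 vehicle values, and an adjusted p of 0.0099 (edgeR). That call ended without vehicle replicate 2 (adjusted p = 0.051), AZA replicate 2 (0.051) or AZA replicate 3 (0.060). KMT2B was the weakest of them, with an adjusted p of 0.043 and a call that was lost in 14 of 24 alternatives. Single libraries also decided the calls of EZH1 (-0.23 without AZA replicate 1, -0.25 without vehicle replicate 2), EHMT1 (-0.17 without AZA replicate 2), NSD1 (-0.18 without AZA replicate 2, -0.16 without vehicle replicate 2) and PRMT1 (-0.17 without AZA replicate 2 or vehicle replicate 3). PRDM2 had 81.8, 85.3 and 83.1 CPM with AZA and 75.6, 71.2 and 71.0 CPM with vehicle, a rise of 0.20 ± 0.05 (adjusted p = 0.017, edgeR), and it was not called without AZA replicate 2, vehicle replicate 2 or vehicle replicate 3 (adjusted p = 0.082, 0.071 and 0.079). Without the 2 libraries of highest mitochondrial share SETDB2 (0.28) was called higher, EP300 (-0.24), KMT5A (-0.17) and KDM2B (-0.17) were called lower, and EZH1 and KMT2B were not called (both -0.23). EP300 (-0.12), KAT2A (-0.04), KMT2D (-0.27), EZH2 (-0.02), KDM1A (-0.05) and KDM6B (-0.14) were not called with AZA. Of these KMT2D came closest, with 69.6, 64.3 and 73.9 CPM in AZA libraries, all below the vehicle values, and an adjusted p of 0.053.

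The comparisons of HDAC3i and of AZA share the vehicle libraries, so their values are set side by side only. SMYD3 stood at 0.56 with HDAC3i and at -0.63 with AZA, and PRDM2 at -0.16 with HDAC3i and at 0.20 with AZA, all called.

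**Figure D3:**
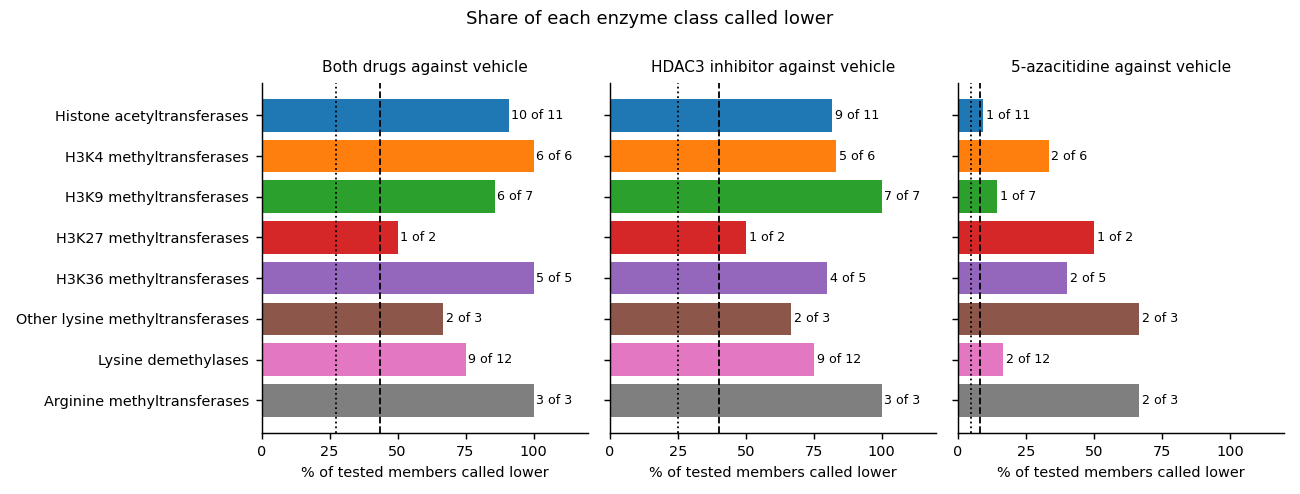
Percent of the tested members of each class called lower (x axis) with both drugs, HDAC3 inhibitor alone and AZA alone, each against vehicle; bars carry the counts. The dotted line marks the percent of all genes tested that were called lower and the dashed line that of genes of at least 5 CPM; with the inhibitor every class lies beyond both lines, and with AZA the acetyltransferases (1 of 11) lie close to them.

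With both drugs 42 of the 49 members were lower than in vehicle (85.7%) and none was called higher, where 27.5% of all genes were called lower and 29.6% higher, and 43.4% of the genes of at least 5 CPM were called lower. The member median was -0.35, against 0.01 for all genes and -0.11 for genes of at least 5 CPM. DESeq2 called 42 lower and 1 higher, KDM1A. The 7 members not called were NCOA3, SETDB1, EZH2, SMYD3, KDM1A, KDM4C and KDM6A. SETDB1 was called lower with both drugs (-0.22, adjusted p = 0.0071) when HDAC3i+AZA replicate 3 was left out. Without the 2 libraries of highest mitochondrial share SETDB1 (-0.20) was called and KAT8 (-0.13) was not. The calls of EZH1 (-0.12) and KDM6B (-0.15) with both drugs ended without HDAC3i+AZA replicate 2, and that of SUV39H2 (-0.22) without HDAC3i+AZA replicate 1. Over 24 alternatives the calls of EZH1, KDM6B and SUV39H2 were lost in 5, 2 and 2.

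CREBBP had 63.2, 54.7 and 74.3 CPM in HDAC3i+AZA libraries against 107, 112 and 106 CPM in vehicle libraries, a level 40.9% lower (log2 change -0.76 ± 0.08, adjusted p = 5.42e-09, edgeR). KMT2B had 49.7, 36.7 and 41.3 CPM with both drugs, a change from vehicle of -0.72 ± 0.08, and KMT5A had 91.7, 90.9 and 91.3 CPM, a change of -0.69 ± 0.05 (adjusted p = 1.84e-08 and 6.46e-12, edgeR). KDM2B and ASH1L fell by 0.64 each, KAT2B by 0.63, PRMT1 by 0.59 and KMT2D by 0.57 on the log2 scale. KMT2C stood at -0.33 and KAT8 at -0.20, both called. EP300 stood at -0.38 ± 0.09, KAT2A at -0.52 ± 0.05, EZH1 at -0.20 ± 0.07 and KDM6B at -0.27 ± 0.08, all called, whereas EZH2 at 0.02 ± 0.05 and KDM1A at 0.10 ± 0.05 were not (adjusted p = 0.80 and 0.084, edgeR). EZH2 had 118, 124 and 120 CPM with both drugs, values that overlap those of vehicle. SMYD3, with 14.4, 15.1 and 14.1 CPM, stood just above vehicle at 0.12 ± 0.08 (adjusted p = 0.20).

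Setting the combination against AZA alone gives the inhibitor effect in cells that had received AZA, in libraries that share none with the comparison of HDAC3i and vehicle. Here 35 members were lower (71.4%) and 3 higher, where 25.1% of all genes were called lower and 28.7% higher, and 39.7% of genes of at least 5 CPM were called lower. The 33 members lower in both inhibitor comparisons are 82.5% of the 40 lower without AZA and 94.3% of the 35 lower with AZA; among genes of at least 5 CPM the same shares were 81.2% and 82.5%. The largest falls were SETDB2 at -0.69, KAT2B at -0.67, KMT5A at -0.54, KAT6B at -0.53 and ASH1L at -0.53. Of the genes followed throughout, CREBBP (-0.44), EP300 (-0.26), KAT2A (-0.47) and KMT2D (-0.30) were called lower. The call of EP300 was lost in 5 of 24 alternatives, among them leaving out AZA replicate 1 (-0.13, adjusted p = 0.18). That of KMT2D was lost in 1, without HDAC3i+AZA replicate 2 (-0.18, adjusted p = 0.053). EZH2 (0.04), EZH1 (0.09) and KDM6B (-0.13) were not called. Without the 2 libraries of highest mitochondrial share 32 members were lower, KDM4A (-0.12), EHMT2 (-0.10) and PRMT5 (-0.13) being no longer called. Without AZA replicate 1 alone the same 3 (-0.11, -0.15 and -0.12 in that order) were not called, nor KMT2C (-0.15) and NCOA1 (-0.21) without HDAC3i+AZA replicate 1.

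The 3 higher members were SMYD3, KDM4C and KDM1A. SMYD3 rose by 0.75 ± 0.08 over AZA alone (adjusted p = 1.98e-08, edgeR). KDM4C had 42.6, 43.0 and 44.8 CPM with both drugs and 35.7, 36.9 and 36.5 CPM with AZA, a rise of 0.26 ± 0.06 (adjusted p = 0.000573, edgeR). KDM1A had 161, 157 and 161 CPM with both drugs and 148, 141 and 143 CPM with AZA, a rise of 0.15 ± 0.05 (adjusted p = 0.0097, edgeR) that was not called with the offset for GC content and length (0.07, adjusted p = 0.16).

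**Figure D4:**
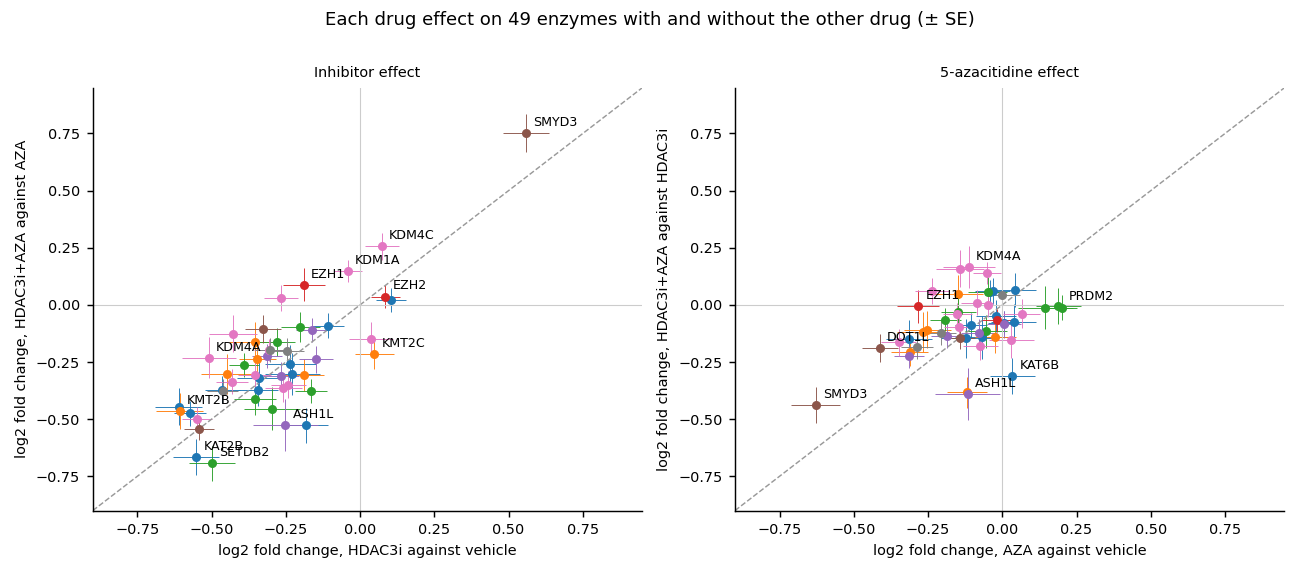
Left, inhibitor effect on each of the 49 members in AZA-treated cells (y axis, log2 fold change of HDAC3i+AZA against AZA) and without AZA (x axis, HDAC3i against vehicle). Right, AZA effect with the inhibitor (y axis) and without it (x axis); bars are standard errors, the dashed line marks equal effects and colours mark the enzyme classes as in the plot of all members. Most members lie at negative inhibitor effects on both axes, and SMYD3 lies apart in both panels.

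Against the inhibitor alone the combination lowered 7 members and raised none, where 2.83% of all genes were called lower and 4.51% higher, and 4.68% of genes of at least 5 CPM were called lower. The 7 were SMYD3 at -0.44, ASH1L at -0.39, KMT2C at -0.38, KAT6B at -0.31, NSD2 at -0.22, SETD1A at -0.21 and CARM1 at -0.18 (14.3% of those tested). DESeq2 called 10 members lower and 1, KDM1A, higher. KMT2C had 35.6, 41.9 and 41.0 CPM with both drugs and 48.2, 51.5 and 55.0 CPM with HDAC3i alone, without overlap (adjusted p = 0.000678, edgeR). In this comparison 19 of the 49 members, 25% of all genes and 29% of genes of at least 5 CPM did not overlap. ASH1L had 15.4, 22.6 and 20.2 CPM with both drugs and 24.6, 24.3 and 27.3 CPM with HDAC3i, but the call rests on single libraries: without HDAC3i+AZA replicate 1 the change was -0.25 (adjusted p = 0.24), and without HDAC3i replicate 3 it was -0.33 (adjusted p = 0.16). KAT6B had 23.9, 28.9 and 27.9 CPM with both drugs and 29.2, 34.6 and 36.4 CPM with HDAC3i; its call also ended without HDAC3i+AZA replicate 1 (-0.23, adjusted p = 0.10) and without HDAC3i replicate 3 (-0.25, adjusted p = 0.12). SETD1A and CARM1 each lost the call in 7 of 24 alternatives. CREBBP (-0.15), EP300 (-0.15), KAT2A (0.06), KMT2D (-0.12), EZH2 (-0.07), EZH1 (-0.01), KDM1A (0.14) and KDM6B (0.16) were not called, although CREBBP and EP300 were called lower (-0.27 and -0.29) when HDAC3i+AZA replicate 3 was left out (adjusted p = 0.040 and 0.035). Without the 2 libraries of highest mitochondrial share 9 members were lower, with CREBBP, EP300 and NSD1 (-0.18) called and CARM1 (-0.18) not called.

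A set of 4 members, SETD1A, NSD2, SMYD3 and CARM1, were lower with AZA both with and without the inhibitor. They are 30.8% of the 13 lower in AZA against vehicle and 57.1% of the 7 lower in HDAC3i+AZA against HDAC3i, and these comparisons share no library; among genes of at least 5 CPM the shares were 19.2% and 33.3%.

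The interaction, which is the AZA effect with the inhibitor minus that without it, was called for 0 members, where 0.263% of all genes were called higher and 0.453% lower. At an unadjusted p under 0.05 there were 10 members (20.4%), where 12.7% of all genes and 17.3% of genes of at least 5 CPM had one, and DESeq2 called KDM4B higher and KAT6B lower. KDM4B, an H3K9 demethylase, came closest at 0.30 ± 0.08 (adjusted p = 0.072, edgeR): with AZA it was 0.24 lower than vehicle on the log2 scale and with both drugs 0.06 above HDAC3i alone. Without HDAC3i+AZA replicate 2, 5 members were called, KDM6B (0.43), EZH1 (0.35), KDM4B (0.31) and DOT1L (0.29) upwards and KAT6B (-0.40) downwards. How many of all genes were called in that fit was not counted, so these 5 show nothing particular to the members. The interaction rose with the GC content of the longest transcript, with a Spearman rho of 0.67 over the members and 0.51 over 9839 genes of at least 5 CPM. DOT1L, KDM6B and KDM4B have 62.7%, 62.4% and 61.2% GC, EZH1 50.5% and KAT6B 45.3%. The cause of this relation was not tested.

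In cells without the inhibitor, GC content moved with the AZA change among the members. Of the 8 members with a GC content above 60%, a limit set after the values were seen, 5 fell with AZA (KMT2B, DOT1L, SETD1A, CARM1 and KDM4B) and 3 were not called (KDM6B at -0.14, SETD1B at -0.15 and EHMT2 at -0.15). How many of all genes above that limit fell was not counted, so these 5 show nothing particular to the members. The Spearman correlation between the GC content of the longest transcript and the AZA change was -0.56 over 49 members, against -0.34 over 9839 genes of at least 5 CPM with a GC value. For the inhibitor change the correlation was -0.48 over the members and 0.05 over those genes. For the AZA change with the inhibitor present (HDAC3i+AZA against HDAC3i) the sign was the other way, 0.16 over the members and 0.24 over those genes. These are descriptions over genes measured in the same libraries. With an offset for GC content and exonic length 40 members were called lower with HDAC3i and 11 with AZA. Over all 17869 genes tested the same offset gave 4716 lower with HDAC3i and 882 lower with AZA. In the AZA comparison KMT2B (-0.13, adjusted p = 0.27), EHMT1 (-0.11, adjusted p = 0.12) and KDM4B (-0.12, adjusted p = 0.10) were no longer called (edgeR).

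**Figure D5:**
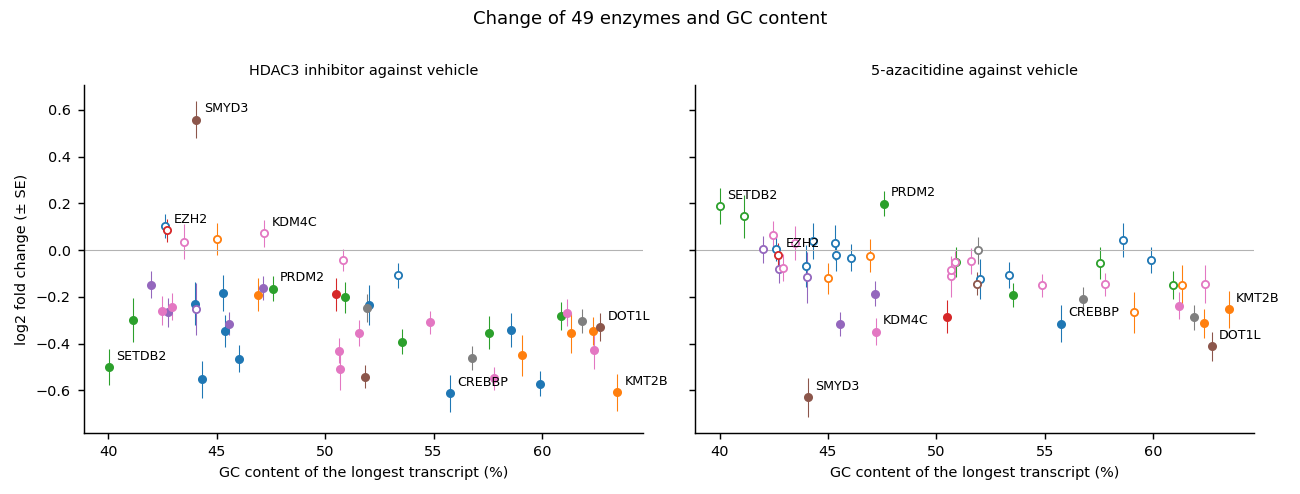
Log2 fold change with its standard error (y axis) of the 49 members against the GC content of their longest transcript in percent (x axis), for HDAC3 inhibitor and for AZA, each against vehicle; filled points were called, colours mark the classes as in the plot of all members. With AZA the called falls run from 44.1% (SMYD3) to 63.5% GC (KMT2B).

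Genes outside the set give the surroundings of these enzymes. Their counts stand beside 24.9% lower and 26.4% higher over all genes with the inhibitor, and 40.3% lower and 22.2% higher among genes of at least 5 CPM; differences between lists were not tested. Of 35 further enzymes of the same families that were tested, 23 fell with the inhibitor (65.7%) and 5 rose, with a median of -0.24. KDM1B, the second LSD-type demethylase, averaged 54.9 ± 2.9 CPM with HDAC3i and 82.1 ± 1.5 CPM with vehicle (log2 change -0.58 ± 0.06, adjusted p = 1.63e-09, edgeR), in contrast to KDM1A. PRMT3, which methylates a ribosomal protein, fell by 0.62, and KDM4D, a testis-rich member of the KDM4 family, rose by 0.93 on the log2 scale.

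Among partners of the acetyltransferases, 15 of 17 NuA4 subunits around KAT5 (88.2%), 10 of 11 MSL and NSL subunits around KAT8 (90.9%) and 7 of 9 subunits of the KAT6A, KAT6B and KAT7 complexes (77.8%) were lower with the inhibitor, with medians of -0.30, -0.41 and -0.51. JADE2, which directs KAT7 to H4, had the largest named fall at -0.85 ± 0.05 (adjusted p = 1.36e-13, edgeR), and ING5, of the same complexes, fell by 0.63 on the log2 scale. EPC1, a NuA4 scaffold, fell by 0.59, MSL3, of the MSL complex, by 0.56 and TRRAP, shared by NuA4 and SAGA, by 0.45. Of the SAGA and ATAC subunits around KAT2A and KAT2B, 12 of 25 were lower (48%) and 1 higher, with a median of -0.20, TAF9 at -0.64 having the smallest adjusted p after WDR5. Of the 14 COMPASS subunits 8 fell (57.1%) and 1 rose, with a median of -0.22; WDR5, which anchors these H3K4 complexes, fell by 0.53 and BOD1 by 0.48.

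Of 12 PRC2 partners of EZH1 and EZH2, 3 fell (25%, PHF19 at -0.58, RBBP4 at -0.35 and AEBP2 at -0.33) and 2 rose (JARID2 at 0.20 and RBBP7 at 0.16), while the core subunits EED (-0.15) and SUZ12 (-0.13) were not called, like EZH2 itself. The highest value among these partners, 1.32, was not called. Of 13 CoREST partners of KDM1A, 1 fell (7.69%) and 4 rose, with a median of 0.01. GFI1B, the repressor that recruits CoREST in erythroid and platelet precursors, averaged 6.14 ± 1.04 CPM with HDAC3i and 0.361 ± 0.1002 CPM with vehicle, a rise of 4.08 ± 0.21 (adjusted p = 8.92e-15, edgeR), and RCOR2, a CoREST scaffold, averaged 6.60 ± 0.72 and 2.86 ± 0.56 CPM in those groups. With AZA alone GFI1B averaged 1.57 ± 0.37 CPM, a rise of 2.11 over vehicle. Of 6 PRMT5 and PRMT1 partners 3 fell and 2 rose, with a median of -0.07. RIOK1, an adaptor of PRMT5, fell by 0.33 on the log2 scale, and BTG2, an antiproliferative protein that binds PRMT1, averaged 162 ± 2 CPM with HDAC3i and 65.5 ± 1.0 CPM with vehicle (log2 change 1.31 ± 0.06). Among 17 acetyl-lysine readers 7 fell (41.2%) and 5 rose with the inhibitor, with MLLT3 at 1.03 and BAZ1A at -0.54. The changes of these readers ran from -0.54 to 6.60, so MLLT3 was not the largest. Of 13 H3K9 partners and readers 8 fell (61.5%) and 1 rose, with CBX5 (the HP1 alpha protein) at -0.38 and TRIM28 at -0.32.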

How the data were processed

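Poly(A) RNA of 12 OCI-Ly7 libraries was sequenced, 3 in each of 4 groups named by the sample titles. The authors deposited expected counts, made per the file headers with featureCounts 2.1.1 over exons of the release 114 annotation, splitting reads with several places into fractions, ignoring strand and dropping reads over more than 1 gene. The submitters' processing notes name STAR 2.7.11b, Subread 2.1.2 and GRCh38. The header leaves unsettled if single reads or pairs were counted. Whole values made up 96.9% (tolerance 1e-06), and 29 of the 50 members had a fractional count somewhere. Of 16 libraries in the header, 4 came without a column of counts and so could not be analysed here.

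Counts were rounded and fitted in R 4.3.3 with edgeR 4.0.16 (filterByExpr, TMM, quasi-likelihood F-test, two-sided) over all 12 libraries with 1 mean per group. P-values were adjusted by Benjamini-Hochberg over 17869 genes in each of 6 comparisons. The standard error is the size of the log2 fold change divided by the square root of F. The biological coefficient of variation was 6.05%, 1 value for all 4 groups, although their spreads differed. Chi-squared per degree of freedom between 2 libraries of a group ran from 3.37 to 4.54 in HDAC3i and 4.72 to 6.41 in vehicle. It ran from 3.92 to 25.7 in AZA and 9.14 to 14.8 in HDAC3i+AZA. CPM per kb used exonic lengths from the header. Promoters came from RefSeq (GRCh38.p14) and GC content from GENCODE 29 transcripts. The fit was tested on simulated data. Figures and summaries used Python 3.11.15 with pandas 2.3.3 and matplotlib 3.10.9.

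Named members were, in each comparison with vehicle, the called members of the 8 largest rises and falls, in the others those of the 5 largest, and CREBBP, EP300, KAT2A, KMT2D, EZH2, EZH1, KDM1A and KDM6B throughout; of each partner list the 2 genes of smallest adjusted p with the inhibitor were named, and KDM4D, JARID2, RBBP7, AEBP2, EED and SUZ12 were added after their values were seen. The members and lists were chosen with earlier results of these data known. Alternatives were DESeq2 1.42.0, its size factors, library totals, limma voom (limma 3.58.1), no filter or a stricter filter on low counts, only the groups compared, each library left out, the 2 libraries of highest mitochondrial share left out, mitochondrially encoded genes left out, replicate blocks and, added after seeing the data, an offset for GC content and length.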

Additional observations from a re-analysis of the deposited data

How the results depend on the processing

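Over 24 alternative analyses (23 for the interaction) no called change of a member changed sign, and 31 of 41 calls with HDAC3i against vehicle, 6 of 14 with AZA against vehicle, 36 of 42 with HDAC3i+AZA against vehicle, 30 of 38 with HDAC3i+AZA against AZA and 3 of 7 with HDAC3i+AZA against HDAC3i were made in all of them. Some of the 24 left out only libraries of groups outside a comparison, which act on it only through the shared fit. A number of lost calls out of 24 can therefore understate how far a call depends on the libraries compared. Counts of lower members ran from 31 (with the filter of 5 CPM in at least 3 libraries) to 41 with HDAC3i against vehicle, 8 to 17 with AZA against vehicle, 37 to 43 with HDAC3i+AZA against vehicle, 31 to 41 (with the offset for GC content and length) with HDAC3i+AZA against AZA and 3 to 11 with HDAC3i+AZA against HDAC3i. With HDAC3i against vehicle 1 member was higher, and 4 were with the filter of 5 CPM in at least 3 libraries, 3 with only the groups compared, 3 with the offset for GC content and length, 2 with DESeq2 and 2 without the 2 libraries of highest mitochondrial share. With AZA against vehicle 1 was higher, and 2 without those 2 libraries. With HDAC3i+AZA against vehicle 0 were higher, and 2 with the stricter filter, 2 with the offset, 1 with DESeq2 and 1 without mitochondrially encoded genes. With HDAC3i+AZA against HDAC3i 0 were higher, and 1 each with the stricter filter, DESeq2 and the offset, while 7 were lower and 11 with the offset. Over all 17869 genes tested the offset gave 725 lower against HDAC3i and 4842 lower against AZA. The interaction had 0 calls, and 1 higher with the stricter filter and 1 higher and 1 lower with DESeq2. Leaving out 1 library at a time gave 1 to 2 higher and 32 to 41 lower with HDAC3i against vehicle, 0 to 2 and 8 to 16 with AZA against vehicle, 0 to 1 and 40 to 43 with HDAC3i+AZA against vehicle, 3 to 3 and 31 to 36 with HDAC3i+AZA against AZA, 0 to 1 and 3 to 9 with HDAC3i+AZA against HDAC3i, and 0 to 4 and 0 to 1 in the interaction; the 8 came without AZA replicate 2, and the 4 and 1 of the interaction without HDAC3i+AZA replicate 2. Replicate numbers did not pair the libraries: over 18 pairs with the same number in the titles the correlation of their deviations ran from -0.06 to 0.07, and over 13 pairs of library-name numbers from -0.03 to 0.07. With a replicate block on the titles' numbers 41 members were lower with HDAC3i, 13 with AZA and 42 with both drugs, and with a block on the library-name numbers 41, 10 and 41; in both, 1, 1 and 0 were higher, 3 were higher and 35 lower against AZA, 0 higher and 7 lower against HDAC3i, and 0 called in the interaction. The cause of these shifts was not tested. With 3 libraries a group and standard errors of 0.05 to 0.16, small changes on the log2 scale were not callable, and the size needed differed between comparisons. The called changes smallest in size were -0.15 with HDAC3i against vehicle, -0.19 with AZA against vehicle and -0.18 with HDAC3i+AZA against HDAC3i. Larger changes were not always called either: with HDAC3i against vehicle NSD3 was called at -0.15, whereas ASH1L at -0.25 was not. In the interaction no member was called, although the values ran from -0.34 to 0.30. A member that was not called may therefore still have changed by such an amount.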
